A study of Mus with 2 samples.

Results

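Lgr6, Gmpr, Tusc3, Gpr135 and A530020G20Rik were 5 of the 32285 genes listed in a single-nucleus RNA sequencing (snRNA-seq) data set of interscapular brown adipose tissue (iBAT). They were chosen by their level in adipocyte-like nuclei, where each was abundant in the Wtap flox/flox library and at least 10-fold lower in the library labelled Wtap-BKO. That difference therefore describes the choice and carries no test. The adipocyte-like cluster in which each gene was found and the adipocyte-like nuclei with a UMI of it divide the same UMIs further and are a description too. The level of each gene in other classes of nuclei was not used in the choice, although these classes come from the same libraries.

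Each genotype was represented by 1 library, and each library was pooled from the frozen iBAT of 4 mice on a C57BL/6 background, fed normal chow and aged 8 weeks. The control mice were Wtap flox/flox, with a floxed exon in Wtap, and the Wtap-BKO mice carried the same floxed alleles together with Ucp1-iCre. Ucp1-iCre drives recombination in cells that use the Ucp1 promoter, that is, in brown adipocytes, so that endothelial, immune and stromal cells should keep the floxed allele. The pooled mice cannot be separated, and there is no replicate, so the intervals below are 95% intervals that cover counting error only, and the genotype cannot be told apart from any other difference between the 2 libraries.

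WTAP is a regulatory subunit of the complex that writes N6-methyladenosine (m6A) on mRNA, a mark that influences mRNA processing, stability and translation. Brown adipocytes burn lipid for heat through the mitochondrial protein UCP1, and they take up signals through receptors at the cell surface. Of the 5 genes, Lgr6 encodes a receptor for R-spondins, which strengthen Wnt signalling, and Gpr135 encodes an orphan G-protein-coupled receptor. Gmpr encodes guanosine monophosphate reductase, which returns GMP to the purine precursor IMP. Tusc3 encodes a subunit of the oligosaccharyltransferase of the endoplasmic reticulum, where proteins receive N-linked glycans. A530020G20Rik is a long non-coding RNA.

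The 5 genes lie on 5 different chromosomes (GRCm38, RefSeq annotation). Lgr6 (ENSMUSG00000042793) spans chr1:134983300-135105374, and Gmpr (ENSMUSG00000000253) spans chr13:45507428-45546386. Tusc3 (ENSMUSG00000039530) spans chr8:39005351-39167050, a length of 162 kb. Gpr135 (ENSMUSG00000043398) is short, with 3.13 kb at chr12:72067974-72071101, and overlaps L3hypdh. A530020G20Rik (ENSMUSG00000097124) covers 3.26 kb at chr3:121532944-121536207.

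The Wtap flox/flox library held 9494 nuclei with a median of 954 unique molecular identifiers (UMIs), and the library labelled Wtap-BKO held 8772 nuclei with a median of 1306 UMIs. The Wtap-BKO library was also richer in mitochondrial RNA, with 74.8% of its nuclei above 5% mitochondrial UMIs, against 33.0% of Wtap flox/flox nuclei, and 20 cell barcodes occurred in both libraries. Adipocyte-like nuclei, named from 12 adipocyte markers, made up 6754 and 4936 of the nuclei and formed 5 of 14 clusters. In these nuclei Wtap itself was at 50.4 counts per 1000000 UMIs (CPM) in the Wtap flox/flox library and 48.3 CPM in the other, a log2 ratio of -0.06 (interval -0.27 to 0.14), so the UMIs of Wtap did not separate the libraries. Loss of an exon need not lower the counted transcript, and reads over that exon were not analysed here. Macrophage markers in adipocyte-like nuclei summed to 73.5 and 141 CPM, with all 8 detected in both libraries, and the part of such RNA in the values below was not tested.

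All 5 genes were readily counted in adipocyte-like nuclei from the control mice and nearly lost in the library labelled Wtap-BKO. Lgr6 had 2181 UMIs (287 CPM) in Wtap flox/flox and 190 UMIs (22.8 CPM) in Wtap-BKO nuclei, a 12.6-fold lower level (log2 ratio -3.66, interval -3.88 to -3.44). Gpr135 had 883 UMIs (116 CPM) and 76 UMIs (9.12 CPM), a 12.8-fold lower level (log2 ratio -3.67, interval -4.03 to -3.33). Both receptor genes thus kept some counts in the Wtap-BKO library. Gmpr, the purine enzyme, had 1829 UMIs (241 CPM) and 195 UMIs (23.4 CPM), which was 10.3-fold lower and the closest of the 5 to the threshold (log2 ratio -3.36, interval -3.58 to -3.15). Tusc3, the glycosylation gene, had 1023 UMIs (135 CPM) and 78 UMIs (9.36 CPM), a 14.4-fold lower level (log2 ratio -3.85, interval -4.20 to -3.51). A530020G20Rik, the non-coding RNA, had 3470 UMIs (457 CPM) and 263 UMIs (31.5 CPM), a 14.5-fold lower level (log2 ratio -3.86, interval -4.04 to -3.67). None of the 5 reached 0 in the Wtap-BKO library.

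**Figure D1:**
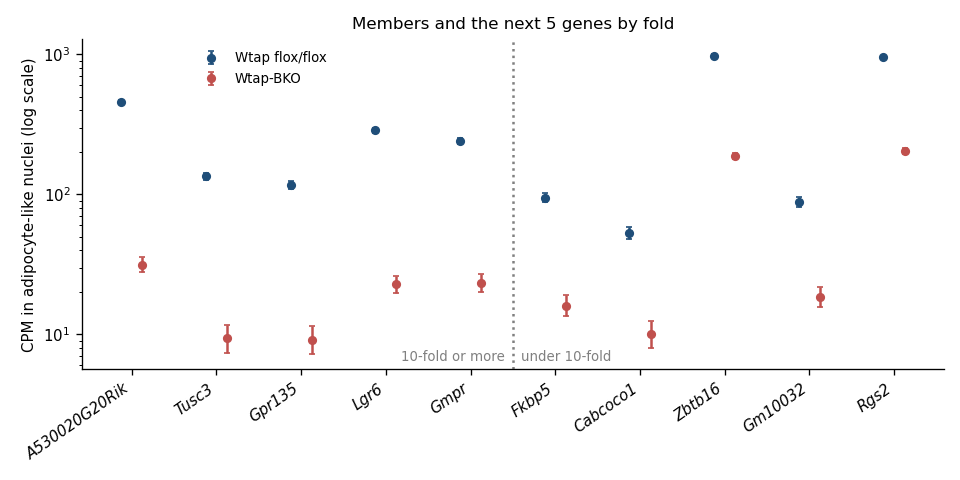
CPM (log scale) in adipocyte-like nuclei of the control (Wtap flox/flox, blue) and the Wtap-BKO (red) library for the 5 genes, left of the dotted line, and for the next 5 genes by fold, right of it. Points are 1 library each, and bars are exact Poisson 95% intervals. The 5 genes lie between 116 and 457 CPM in blue and between 9.12 and 31.5 CPM in red.

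Among 4029 genes with at least 50 CPM in at least 1 of the libraries and at least 20 UMIs in both together, these 5 were the only ones at least 10-fold lower in the library labelled Wtap-BKO, which is 0.124% of the genes compared. Just outside the threshold stood Fkbp5, a glucocorticoid-induced co-chaperone, at 94.9 and 16.1 CPM (log2 ratio -2.56). Cabcoco1 followed at 53.3 and 10.1 CPM (log2 ratio -2.40), and Zbtb16, a zinc-finger transcription factor, at 977 and 190 CPM (log2 ratio -2.37). Gm10032 (log2 ratio -2.26) and Rgs2, a regulator of G-protein signalling (log2 ratio -2.23), came next. The gap between Gmpr at -3.36 and Fkbp5 at -2.56 describes the values by which the genes were chosen and depends on the filter, since without a minimum CPM 12 genes were at least 10-fold lower, among them Cyp2b10, Fras1, Npas2, Sgk2 and Shisa9.

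**Figure D2:**
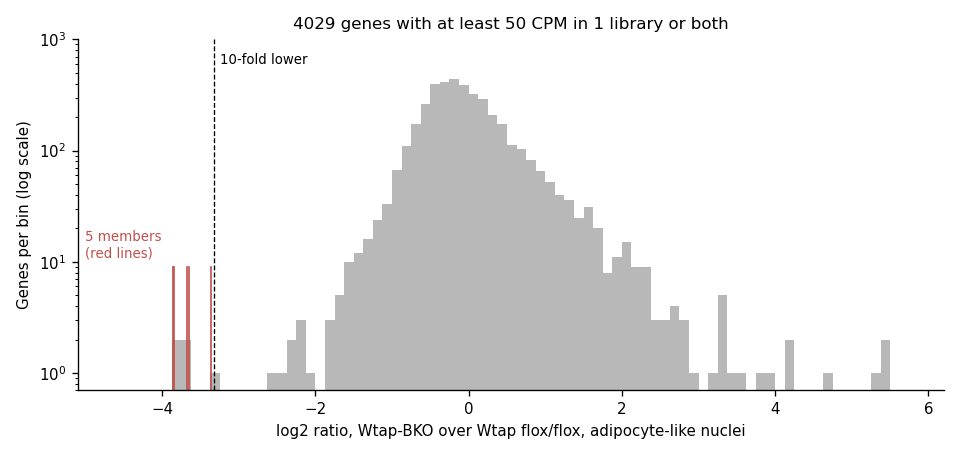
Number of genes (log scale) by log2 ratio of Wtap-BKO over Wtap flox/flox in adipocyte-like nuclei, for the 4029 genes compared. The 5 red lines mark the genes described here, from -3.86 to -3.36, and the dashed line marks 10-fold lower.

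The lower level was present in each stratum of mitochondrial share and depth, although the interval included 0 for Tusc3 above 25% mitochondrial UMIs and for Gpr135 from 4000 UMIs upward. The strata divide the UMIs by which the genes were chosen, so these values describe the choice and are no support for it. In nuclei with at most 5% mitochondrial UMIs, Lgr6 was at 306 CPM in 5191 Wtap flox/flox nuclei and 18.5 CPM in 1057 Wtap-BKO nuclei (log2 ratio -4.05). In nuclei above 10% and up to 25%, Lgr6 was at 202 and 25.4 CPM (log2 ratio -2.99). A530020G20Rik went the other way in the Wtap-BKO library, with 59.3 CPM at up to 5% mitochondrial UMIs (log2 ratio -3.04) and 20.9 CPM between 10% and 25% (log2 ratio -3.78). In nuclei of 1000 to 2000 UMIs, where 2851 and 2511 nuclei could be compared at like depth, the log2 ratios of the 5 genes were between -4.24 (A530020G20Rik) and -3.58 (Gmpr).

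The adipocyte-like clusters differed in how much of each gene they held. Cluster 2, led by Cabcoco1 and Lncbate10, had the highest Lgr6 level in both libraries, with 345 CPM (interval 325 to 367) in Wtap flox/flox and 38.3 CPM (interval 30.5 to 47.6) in Wtap-BKO nuclei. Lgr6 was itself among the leading genes of this cluster, though left out of the clustering features. So were Cabcoco1 and Shisa9, which were also lower in the Wtap-BKO library. Cluster 0, led by Ttn, was at 287 and 21.5 CPM, and cluster 1, led by Nudt18 and mitochondrial genes, at 218 and 21.9 CPM. The intervals of cluster 2 did not overlap those of clusters 0 and 1 in either library. Gmpr was ordered like Lgr6 in the Wtap-BKO library, with 36.5 CPM in cluster 2 against 20.3 CPM in cluster 0 and 24.4 CPM in cluster 1. The Gmpr interval of cluster 2 (28.8 to 45.5 CPM) overlapped slightly with that of cluster 1 (18.9 to 31.0 CPM).

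Cluster 8 was the exception. It was led by Slc7a10, an amino acid transporter known from white adipocytes, and by Chst1, Cyp2e1 and Retn, and it held 212 Wtap flox/flox and 519 Wtap-BKO nuclei. In the Wtap flox/flox library Lgr6 was at 84.0 CPM there (interval 53.9 to 125), Gmpr at 66.5 CPM (interval 40.1 to 104) and Tusc3 at 42.02 CPM (interval 21.7 to 73.4), below the intervals of clusters 0, 1 and 2. In the Wtap-BKO library, Lgr6 had 2 UMIs in the 519 nuclei (1.74 CPM, interval 0.211 to 6.30), the lowest level of any adipocyte-like cluster. Of the UMIs that remained in Wtap-BKO adipocyte-like nuclei, cluster 8 held 2 of 190 for Lgr6 and 6 of 195 for Gmpr.

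A530020G20Rik behaved differently in cluster 8. It had 85 UMIs (298 CPM, interval 238 to 368) in Wtap flox/flox and 121 UMIs (105 CPM, interval 87.5 to 126) in Wtap-BKO nuclei, a log2 ratio of -1.50 (interval -1.91 to -1.08). Its log2 ratios in the other 4 adipocyte-like clusters were -4.85, -4.60, -4.12 and -4.72. Thus 121 of the 263 UMIs that remained in Wtap-BKO adipocyte-like nuclei came from cluster 8. Without cluster 8 the gene was at 463 and 19.8 CPM, a log2 ratio of -4.55, an alternative added after the cluster levels were seen. Gpr135 had 24 UMIs (84.0 CPM) in cluster 8 of the Wtap flox/flox library, the lowest level of the 5 clusters, and 19 UMIs (16.6 CPM, interval 9.97 to 25.9) in that of the Wtap-BKO library, the highest of the 5, a log2 ratio of -2.34 (interval -3.29 to -1.41). The interval of Gpr135 in the Wtap-BKO library overlapped that of cluster 2 (7.19 to 16.7 CPM), so its order among the clusters could not be told. Whether the ratios of these genes differ between clusters was not tested, since each cluster had 1 library per genotype.

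Cluster 10, led by the interferon-induced genes Gbp10, Gbp6 and Iigp1, held 121 and 309 nuclei. Lgr6 was at 257 and 15.4 CPM there, Gmpr at 251 and 15.4 CPM, and A530020G20Rik at 407 and 15.4 CPM, with 9 UMIs of each gene in the Wtap-BKO library. Tusc3 had 11 UMIs (74.5 CPM) and 12 UMIs (20.6 CPM, interval 10.6 to 35.97), a log2 ratio of -1.86 (interval -3.16 to -0.53). The smaller difference of Tusc3 here and in cluster 8 (log2 ratio -1.78, interval -3.00 to -0.54) rested on 11 to 14 UMIs in each library.

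**Figure D3:**
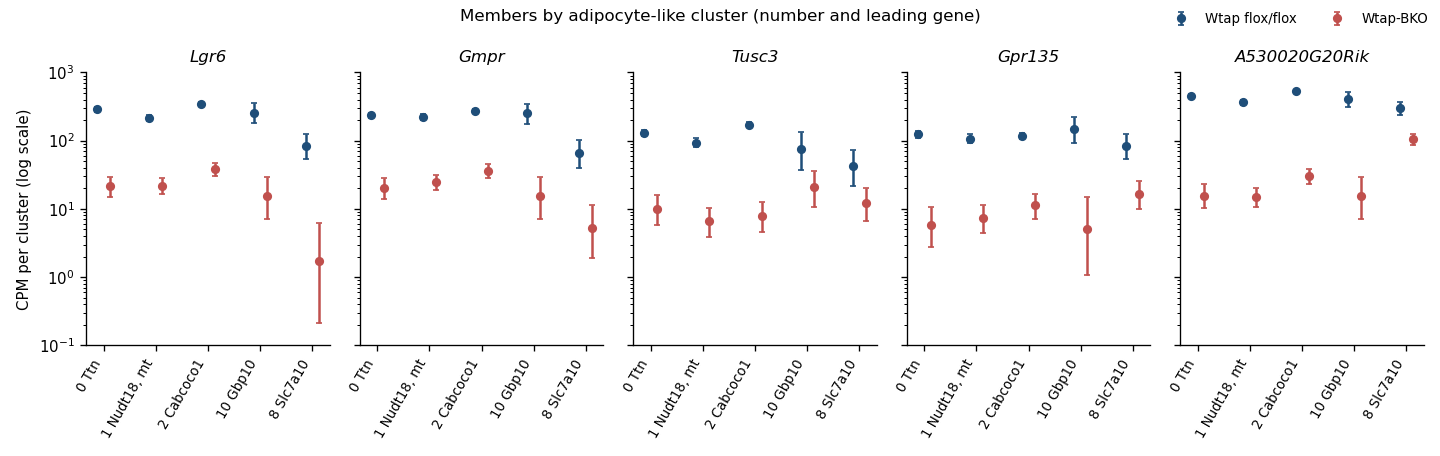
CPM (log scale) of each gene in the 5 adipocyte-like clusters, named by number and leading gene, in the control (Wtap flox/flox, blue) and the Wtap-BKO (red) library, with exact Poisson 95% intervals as bars. In cluster 8 A530020G20Rik stands at 298 and 105 CPM, whereas Lgr6 stands at 84.0 and 1.74 CPM.

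To compare nuclei at 1 depth, each nucleus was thinned to 1000 UMIs, which kept 3285 Wtap flox/flox and 3840 Wtap-BKO adipocyte-like nuclei and left out 3469 and 1096. Lgr6 was then seen in 24.0% (interval 22.5 to 25.5) of Wtap flox/flox nuclei and in 1.90% (interval 1.49 to 2.38) of Wtap-BKO nuclei. Gmpr was seen in 18.0% and 1.77%, Tusc3 in 10.4% and 0.938%, Gpr135 in 10.9% and 0.859%, and A530020G20Rik in 35.8% and 2.71%. The unthinned shares of Lgr6 were 23.7% and 3.34%. Few nuclei carried more than 1 UMI of a gene in the thinned Wtap-BKO library, with at most 8 nuclei for any of the 5 genes and at most 2 UMIs in a nucleus.

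The shares were set beside those of macrophage- and T cell-like nuclei, which should lack adipocyte transcripts and in droplet data receive them as free RNA. In the Wtap flox/flox library, 13.7% (interval 9.04 to 19.5) of 183 such nuclei had Lgr6 and 18.0% (interval 12.8 to 24.4) had A530020G20Rik, at a median of 1396 UMIs before thinning against 1373 for adipocyte-like nuclei. These shares were below those of adipocyte-like nuclei. Gmpr was at 12.6% (interval 8.14 to 18.3) against 18.0% (interval 16.7 to 19.4) in adipocyte-like nuclei, and Gpr135 at 7.65% (interval 4.25 to 12.5) against 10.9% (interval 9.82 to 11.98), with overlapping intervals for both. At 500 UMIs, with 408 macrophage- and T cell-like nuclei, the intervals of both were separate. Gmpr was then at 4.17% (interval 2.45 to 6.59) against 9.99% (interval 9.29 to 10.7). Gpr135 was at 2.21% (interval 1.01 to 4.15) against 5.48% (interval 4.95 to 6.05). Tusc3 was seen in 10.4% of both populations of Wtap flox/flox nuclei at 1000 UMIs. In the Wtap-BKO library, Lgr6 was seen in 0.715% (interval 0.309 to 1.40) of 1119 macrophage- and T cell-like nuclei, against 1.90% in adipocyte-like nuclei, with medians of 1630 and 1696 UMIs. The corresponding background was 0.536% (interval 0.197 to 1.16) for Gmpr, 1.34% (interval 0.752 to 2.20) for A530020G20Rik and 0.447% for Gpr135, and the interval of Gpr135 (0.145 to 1.04) overlapped that of its adipocyte-like share (0.592 to 1.20). For Tusc3 the order was inverted, since 4.91% (interval 3.72 to 6.35) of the macrophage- and T cell-like nuclei carried it, against 0.938% (interval 0.657 to 1.30) of adipocyte-like nuclei. Macrophage- and T cell-like nuclei therefore give no free-RNA background for Tusc3, and the share of Gpr135 left in Wtap-BKO adipocyte-like nuclei could not be told from its background. In the Wtap-BKO library, the intervals of Lgr6, Gmpr and A530020G20Rik lay above their background at 1000 UMIs, A530020G20Rik narrowly (2.22 to 3.27 in adipocyte-like nuclei). At 500 UMIs those of Gmpr (0.666 to 1.22 against 0.257 to 0.984) and A530020G20Rik (1.02 to 1.68 against 0.295 to 1.05) overlapped it, and that of Lgr6 did not (0.893 to 1.52 against 0.151 to 0.772).

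Of the 3285 thinned Wtap flox/flox nuclei, 1063 had none of the 5 genes, 1385 had 1 and 837 (25.5%, interval 24.0 to 27.0) had at least 2. Of the 3840 Wtap-BKO nuclei, 3537 had none, 292 had 1 and 11 (0.286%, interval 0.143 to 0.512) had 2, with no nucleus above 2. Among nuclei with at least 1 gene, at least 2 were found in 37.7% (837 of 2222) in the Wtap flox/flox library and in 3.63% (11 of 303, interval 1.83 to 6.40) in the Wtap-BKO library. This difference follows from the lower share of each gene, by which the genes were chosen, and says nothing of whether they were found together.

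**Figure D4:**
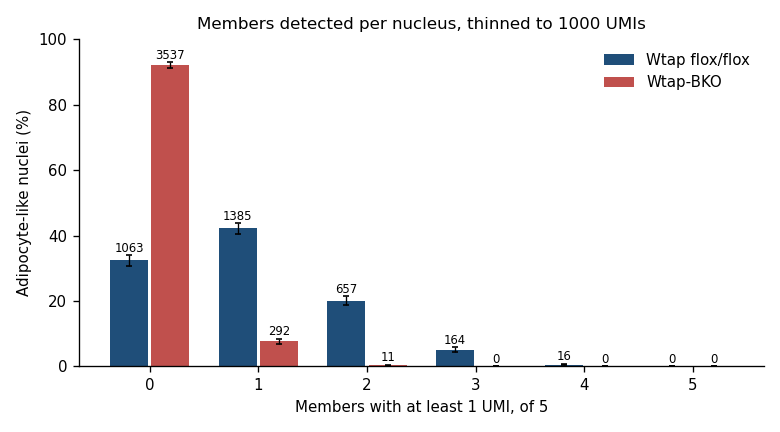
Share of adipocyte-like nuclei by the number of the 5 genes with at least 1 UMI, after thinning to 1000 UMIs, in the Wtap flox/flox (blue, 3285 nuclei) and Wtap-BKO (red, 3840 nuclei) libraries. Bars carry exact binomial 95% intervals, and the numbers printed on them count the nuclei. In the Wtap-BKO library 3537 nuclei had none of the genes and 11 had 2.

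Co-detection was examined in all 20 ordered pairs of genes. In Wtap flox/flox nuclei, Gmpr was seen in 22.6% (interval 19.7 to 25.7) of the 787 nuclei with Lgr6 and in 16.6% of the 2498 without it. Lgr6 was in turn seen in 30.1% of nuclei with Gmpr and in 22.6% of those without. This was the only pair whose intervals did not overlap, and the median ratio over the 20 ordered pairs was 1.03, with 14 of the 20 above 1. Within cluster 2 the difference for Gmpr was smaller, with 22.6% (interval 18.9 to 26.5) of nuclei with Lgr6 against 19.4% (interval 17.4 to 21.7) of those without, and within cluster 0 it was 26.5% (interval 18.8 to 35.5) against 12.4% (interval 9.29 to 16.1). Cluster 0 was the only 1 of the 5 clusters with separate intervals, since they overlapped in cluster 1 (30 of 150 against 96 of 599 nuclei), in cluster 10 (4 of 17 against 8 of 50 nuclei) and in cluster 8 (2 of 11 against 3 of 130 nuclei). In thinned Wtap-BKO nuclei no pair had separate intervals, and the median ratio was 1.58, with 14 of the 20 above 1. Gmpr was seen in 2 of 73 nuclei with Lgr6 (2.74%, interval 0.334 to 9.55) and in 1.75% of those without. A530020G20Rik was seen in 0 of 73 nuclei with Lgr6 (interval 0 to 4.93%). Between 0 and 3 nuclei stood behind each pair, so co-detection beyond the overall shares was not detectable at this depth. Without thinning, where nuclei differ in depth, Gmpr was seen in 14 of 165 Wtap-BKO nuclei with Lgr6 (8.49%, interval 4.72 to 13.8) and in 3.19% (interval 2.71 to 3.72) of those without. These intervals did not overlap, and Lgr6 and Gmpr were the only pair of which this held in the Wtap-BKO library.

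At least 1 of the 5 genes had a UMI in 7.89% (interval 7.06 to 8.79) of Wtap-BKO adipocyte-like nuclei. The share was 7.78% (87 of 1119, interval 6.27 to 9.50) in macrophage- and T cell-like, 9.74% in fibroblast-like and 11.5% in pericyte-like nuclei. Of the 87 nuclei 55 had Tusc3, for which they give no free-RNA background, so the pooled shares do not measure a background. By gene, Lgr6, Gmpr and A530020G20Rik lay above their background at 1000 UMIs, but only Lgr6 did at 500 UMIs. These genes were still seen in 0.715%, 0.536% and 1.34% of macrophage- and T cell-like nuclei, in that order. A nucleus with a UMI is therefore not read as one that kept expression, and the part of free RNA in the following comparisons was not tested. The 292 nuclei with 1 gene had a median of 8.33% mitochondrial UMIs, against 10.1% in the 3537 nuclei with none, and 19.2% of them lay in cluster 8 and 30.5% in cluster 2, against 11.4% and 23.4%. Of the 11 nuclei with 2 genes 9.09% lay in cluster 8, and in the Wtap flox/flox library cluster 8 held 8.09% of nuclei with none of the genes, 3.25% of those with 1 and 1.20% of those with at least 2. Genes picked for being much higher in the Wtap-BKO library had overlapping intervals in nuclei with 1 of the 5 genes and with none. Cenpu was at 92.5 CPM (interval 60.9 to 135) in nuclei with 1 gene and 94.1 CPM (interval 84.3 to 105) in nuclei with none, and Col5a3, a collagen chain, at 332 CPM (interval 269 to 405) and 334 CPM (interval 315 to 354). The intervals of Gm34590, Srrm3 and Ccdc152 overlapped as well. Wtap was at 37.7 CPM (interval 18.8 to 67.4) and 47.8 CPM (interval 40.8 to 55.6). Ppargc1a, the coactivator of thermogenic genes, was at 490 CPM (interval 413 to 577) in nuclei with 1 gene and 385 CPM (interval 365 to 406) in nuclei with none, and these intervals did not overlap. The intervals of the other 4 adipocyte genes examined overlapped, with Prdm16 at 445 and 439 CPM, Pparg at 1418 and 1295 CPM, Ucp1 at 295 and 260 CPM and Adipoq at 408 and 437 CPM. Only 44 genes had enough UMIs for a comparison of the 11 nuclei with 2 genes, among which Slc4a4 had the highest ratio (log2 ratio 1.09, interval 0.52 to 1.60) and mt-Nd2 the lowest (log2 ratio -1.32, interval -2.10 to -0.64). Because 11 nuclei were few, all 303 nuclei with at least 1 gene were also set against those with none, a split made after the counts were seen. Trabd2b (log2 ratio 1.63, interval 0.86 to 2.34), Pdgfc, Plcl1, Alcam and Slc7a10 (log2 ratio 1.27, interval 0.89 to 1.64) had the highest ratios of 3119 genes, and Acox3, a peroxisomal oxidase, the lowest (log2 ratio -1.07, interval -2.15 to -0.17). Slc7a10 is the leading gene of cluster 8, in which 12.4% of Wtap-BKO nuclei, thinned to 1000 UMIs, had a UMI of at least 1 of the 5 genes, against 5.94% to 10.1% in the other adipocyte-like clusters. Without thinning, A530020G20Rik had 121 UMIs in cluster 8 of that library, against 19 of Gpr135, 14 of Tusc3, 6 of Gmpr and 2 of Lgr6. The thinned share itself was not split by gene.

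In other classes of nuclei, 4 of the 5 genes were also much lower in the library labelled Wtap-BKO, with log2 ratios between -5.02 and -2.06 over 5 named classes. Lgr6 was at 105 and 9.21 CPM in macrophage-like nuclei (33 and 17 UMIs, log2 ratio -3.50, interval -4.44 to -2.62). In T cell-like nuclei it was at 166 and 14.3 CPM (log2 ratio -3.53), in fibroblast-like nuclei at 104 and 7.84 CPM (log2 ratio -3.73), in pericyte-like nuclei at 72.3 and 3.23 CPM (log2 ratio -4.48) and in endothelial-like nuclei at 50.2 and 3.24 CPM (log2 ratio -3.95). In these 5 classes the highest Lgr6 level of the Wtap-BKO library, in T cell-like nuclei, was below the lowest level of the Wtap flox/flox library, in endothelial-like nuclei. Gmpr had log2 ratios between -4.27 in T cell-like and -2.06 in pericyte-like nuclei, and Gpr135 between -3.49 in T cell-like and -2.75 in endothelial-like nuclei.

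The genes at least 10-fold lower were also counted in each of these classes. In macrophage-like nuclei 5 of 4789 genes (0.104%) were at least 10-fold lower, namely Lgr6, Gmpr, Gpr135, A530020G20Rik and Gm10032. In T cell-like nuclei 4 of 4915 genes (0.0814%) were, namely Lgr6, Gmpr, A530020G20Rik and Col12a1. In fibroblast-like nuclei there were 2 of 4570 genes (0.0438%), Lgr6 and Gmpr. In endothelial-like nuclei 2 of 4157 genes (0.0481%) and in pericyte-like nuclei 2 of 4414 genes (0.0453%) passed, and in both classes these were Lgr6 and A530020G20Rik. Between 2 and 5 of the 5 genes met the minimum of 50 CPM and 20 UMIs in a class. Gpr135 in T cell-like nuclei was left out by the UMI minimum, with 10 and 6 UMIs (69.0 and 6.14 CPM, 11.2-fold lower). The 5 genes enter these counts through their Wtap flox/flox level, so their number among the genes counted is no support for the choice. These classes come from the same 2 libraries and share their free RNA, so they are not independent of the contrast by which the genes were chosen.

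The level of adipocyte transcripts in these classes was measured beside that of the 5 genes. In Wtap flox/flox macrophage-like nuclei the 12 adipocyte markers had a median of 50.4% of their CPM in adipocyte-like nuclei, and Lgr6 had 36.4%, Gmpr 51.3%, Gpr135 43.6% and A530020G20Rik 46.5%. Tusc3 had 84.7%, above those 4 genes and above the marker median. In Wtap flox/flox endothelial-like nuclei the marker median was 53.5%, and the 5 genes lay between 14.3% (A530020G20Rik) and 36.4% (Tusc3). The markers ranged from 18.1% to 236% there, the highest above its adipocyte-like level, so that median is no measure of free adipocyte RNA. In Wtap-BKO macrophage-like nuclei the marker median was 34.2%, with Lgr6 at 40.4%, Gmpr at 37.0%, A530020G20Rik at 44.6% and Gpr135 at 53.5%. In macrophage-like nuclei the markers ranged from 42.8% to 86.7% in the Wtap flox/flox and from 27.3% to 61.3% in the Wtap-BKO library. Gmpr, Gpr135 and A530020G20Rik lay within both ranges, and Lgr6 was below the Wtap flox/flox range. In T cell-like nuclei the markers ranged from 58.1% to 81.0% and from 30.4% to 57.6%. A530020G20Rik was below both ranges there, at 36.3% and 16.2% (24 and 5 UMIs). Lgr6 was at 57.7% and 62.8% (24 and 14 UMIs), Gmpr at 57.3% and 30.6% and Gpr135 at 59.4% and 67.3%. The part of free RNA in these levels was not tested.

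Tusc3 was the exception in the Wtap-BKO library, where it was higher in every other named class than in adipocyte-like nuclei. It was at 32.4 CPM (20 UMIs, interval 19.8 to 49.96) in endothelial-like, 45.0 CPM (83 UMIs, interval 35.8 to 55.7) in macrophage-like and 44.0 CPM (43 UMIs, interval 31.8 to 59.2) in T cell-like nuclei. Fibroblast-like nuclei had 47.1 CPM (48 UMIs, interval 34.7 to 62.4), and pericyte-like nuclei had 48.5 CPM (15 UMIs, interval 27.1 to 80.0). These 5 intervals overlapped one another, and all lay above the 9.36 CPM (interval 7.40 to 11.7) of adipocyte-like nuclei. The named classes together had 43.7 CPM of Tusc3 in the Wtap-BKO library, a log2 ratio of 2.22 (interval 1.84 to 2.62) over adipocyte-like nuclei. In the Wtap flox/flox library the order was the reverse, with 63.6 CPM in the named classes together and 135 CPM in adipocyte-like nuclei (log2 ratio -1.08, interval -1.35 to -0.83).

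Between the libraries, Tusc3 was lower in Wtap-BKO nuclei of all 5 classes outside adipocyte-like nuclei, but by less than the counting error in 4 of them. Over the named classes together it was at 63.6 CPM (142 UMIs) in the Wtap flox/flox and 43.7 CPM (211 UMIs) in the Wtap-BKO library. Its log2 ratio was -0.60 (interval -1.44 to 0.19) in endothelial-like, -0.65 (interval -1.66 to 0.51) in T cell-like, -0.47 (interval -1.25 to 0.36) in fibroblast-like and -0.25 (interval -1.24 to 0.69) in pericyte-like nuclei. These 4 intervals included 0 and left out the -3.85 of adipocyte-like nuclei. In macrophage-like nuclei the log2 ratio was -1.34 (interval -1.92 to -0.74). The other 4 genes were lower in the Wtap-BKO named classes together than in adipocyte-like nuclei, with log2 ratios between -1.53 (Gmpr) and -0.73 (A530020G20Rik).

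A530020G20Rik was relatively high in fibroblast-like nuclei of the library labelled Wtap-BKO. There it had 70 UMIs (228 CPM, interval 178 to 288) in Wtap flox/flox and 56 UMIs (54.9 CPM, interval 41.5 to 71.3) in Wtap-BKO nuclei, a log2 ratio of -2.06 (interval -2.59 to -1.53). This Wtap-BKO level was 174% of that in adipocyte-like nuclei, while the adipocyte markers had a median of 30.3% there. In macrophage-like, T cell-like, pericyte-like and endothelial-like nuclei its log2 ratios were between -5.02 and -3.75. The Wtap-BKO level of the non-coding RNA was thus higher in the Slc7a10-led cluster and in fibroblast-like nuclei than in adipocyte-like nuclei as a whole.

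**Figure D5:**
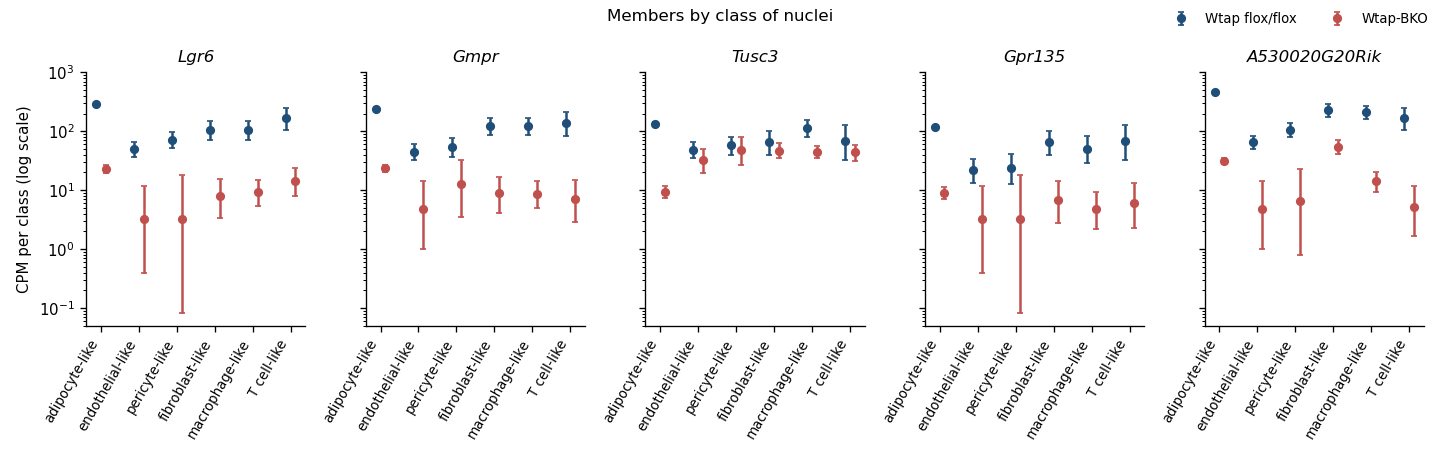
CPM (log scale) of each gene by class of nuclei in the control (Wtap flox/flox, blue) and the Wtap-BKO (red) library, with exact Poisson 95% intervals as bars. For Tusc3, the blue and red intervals overlap in the endothelial-, pericyte-, fibroblast- and T cell-like classes, but not in macrophage-like nuclei (114 and 45.0 CPM) or in adipocyte-like nuclei (135 and 9.36 CPM).

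Over 26 units of 1 cluster in 1 library, 4 of the 5 genes had a Pearson r of log2(CPM + 1) between 0.81 and 0.96 for every pair of Lgr6, Gmpr, Gpr135 and A530020G20Rik. Lgr6 and Gmpr were most like each other among 7261 genes (r = 0.94), and Gpr135 and A530020G20Rik were most like each other (r = 0.96). Tusc3 was less like the other 4, with r between 0.57 and 0.64, and its most similar genes were Hipk1 (r = 0.78), a kinase, Ogt (r = 0.74), the O-GlcNAc transferase, and Auh (r = 0.72). Outside the 5 genes, Kng2 (r = 0.91) and Rgs2 (r = 0.91) were most like Lgr6, Letmd1 (r = 0.91) and Rgs2 (r = 0.90) most like Gmpr, and Bicd2 was the closest to Gpr135 (r = 0.93) and to A530020G20Rik (r = 0.87). Mapk1ip1 followed for Gpr135 (r = 0.90) and Gm43597 for A530020G20Rik (r = 0.86). The units share 2 libraries and their depth, so these values are a description, and the difference between the libraries enters each of them.

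Paralogs were examined for Lgr6, Gmpr and Tusc3, and the 3 with enough UMIs were not 2-fold lower. Lgr4, the R-spondin receptor related to Lgr6, had 596 UMIs in Wtap flox/flox and 1150 UMIs in Wtap-BKO adipocyte-like nuclei, a log2 ratio of 0.81 (interval 0.67 to 0.96). Gmpr2 had 60 and 57 UMIs (log2 ratio -0.21, interval -0.76 to 0.34). Magt1, the paralog of Tusc3 in the oligosaccharyltransferase, had 525 and 491 UMIs (log2 ratio -0.23, interval -0.41 to -0.05). Lgr5 had too few UMIs to compare.

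Genes next to the 5 on their chromosomes were described in the same way. Of 31 neighbours, 20 had at least 20 UMIs, 7 with a log2 ratio above 0 and 13 below. Over all 14081 genes with at least 20 UMIs, 4.26% were at least 2-fold lower and 14.6% at least 2-fold higher. Of the 20 neighbours, 2 were at least 2-fold lower, G630064G18Rik (15 and 8 UMIs) and Rtn1 (22 and 10 UMIs), and none was 10-fold lower. At least 2-fold higher were 3, Syt2 (8 and 21 UMIs), Ptpn7 (4 and 16 UMIs) and Msr1 (4 and 26 UMIs). Atxn1, 3.37 kb beyond Gmpr, had 3048 and 3291 UMIs (log2 ratio -0.02, interval -0.09 to 0.05). Slc44a3, a choline transporter-like gene 0.600 kb from A530020G20Rik, had 178 and 280 UMIs (log2 ratio 0.52, interval 0.24 to 0.80). L3hypdh, which overlaps Gpr135 and whose reads could be split with it, had 276 and 247 UMIs (log2 ratio -0.29, interval -0.55 to -0.04). Ppp1r12b, beside Lgr6, had 1234 and 952 UMIs (log2 ratio -0.51, interval -0.63 to -0.39). The nearest neighbours of Tusc3 with enough UMIs, Sgcz and Msr1, had at most 28 UMIs in a library.

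The pathways of the genes were described by lists chosen with earlier results known, among the same 14081 genes, whose median log2 ratio was 0.07. Of 21 R-spondin and Wnt genes, 5 were at least 2-fold higher and 0 at least 2-fold lower, beside 14.6% and 4.26% of all genes. Their median was 0.41, with 16 of the 21 above 0. The 5 were the Wnt receptors Fzd1 (7 and 62 UMIs, log2 ratio 3.01), Fzd2 (4 and 28 UMIs, 2.67), Fzd8 (1.48) and Fzd7 (1.17) and the transcription factor Tcf7 (1.54, with 5 and 16 UMIs). Fibroblast markers in adipocyte-like nuclei summed to 69.2 and 138 CPM and T cell markers to 17.6 and 58.1 CPM, with all 8 of each list detected in both libraries, and the part of such RNA in these differences was not tested.

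Of 24 purine nucleotide genes, 2 were at least 2-fold higher and 1 lower, beside 14.6% and 4.26% of all genes, with a median of -0.16. These counts were no higher than those shares, so the genes named next are single values and not a trait of the list. Xdh, the xanthine oxidase of purine breakdown, was at 92.3 and 270 CPM (log2 ratio 1.55, interval 1.43 to 1.67), and Gda, the guanine deaminase, at 3.82 and 29.3 CPM (log2 ratio 2.94, interval 2.38 to 3.55). Pfas, an enzyme of purine synthesis, was at 58.4 and 26.3 CPM (log2 ratio -1.15, interval -1.39 to -0.92). Of 16 oligosaccharyltransferase and magnesium genes, 1 was at least 2-fold higher and 1 at least 2-fold lower, beside the same shares of all genes, with a median of 0.21. These were Ost4, a small oligosaccharyltransferase subunit (26 and 60 UMIs, log2 ratio 1.07), and Cnnm2 (316 and 134 CPM, log2 ratio -1.24). The core subunits thus did not share the low level of Tusc3.

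Of 23 G-protein-coupled receptor genes of adipocytes, 10 were at least 2-fold higher and 3 at least 2-fold lower, beside 14.6% and 4.26% of all genes, with a median of 0.85. The metabolite receptors Hcar2 (5 and 57 UMIs, log2 ratio 3.38), Ffar2 (21 and 202 UMIs, 3.13) and Hcar1 (111 and 669 UMIs, 2.46) and the beta-adrenergic receptor Adrb3 (221 and 471 CPM, 1.09) were among the former. The alpha-adrenergic receptor Adra1a was among the latter, at 1169 and 517 CPM (log2 ratio -1.18, interval -1.23 to -1.12). Of 23 brown adipocyte genes, 4 were at least 2-fold lower, namely Ppargc1a (log2 ratio -1.29), Pparg (-1.09), Slc27a2 (-1.06) and Gk (-1.03), 0 were 2-fold higher, and the median was -0.47. Of the 23, 19 had a log2 ratio below 0 and 4 above. Ucp1, named here after its values were seen, was among the latter, at 152 and 258 CPM (log2 ratio 0.77, interval 0.66 to 0.87), as were Lhx8 (0.63), Letm1 (0.13) and Esrra (0.03). No gene of any of these lists was 10-fold lower.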

How the data were processed

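Nuclei from frozen iBAT were profiled with 10x Chromium v3.1 chemistry. The deposited values were raw UMI counts per gene and nucleus, which the authors had made with Cell Ranger 5.0.0 per the file headers. The submitters' processing notes name mm10, and the treatment of intronic reads is not given in the sources used here. The lowest total was 500 UMIs, and no nucleus was removed. Of repeated symbols (38), the gene listed earlier was used.

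The 5 genes and all gene lists were chosen with earlier results of these data known. Nuclei were clustered with Seurat 5.3.0 in R 4.3.3 by log-normalization, canonical correlation analysis, 20 principal components and a resolution of 0.5, on 2000 variable features less those of the 5 genes among them, which left 1998. Other classes were named from at least 3 markers with 10 UMIs and 2 times the CPM of other nuclei. Adipocyte-like clusters had at least 50% of the adipocyte markers at 1.5 times the CPM of named clusters, and clusters passing both were called mixed and set aside, as was 1 unnamed mitochondria-rich cluster. These naming thresholds were set after seeing the data. The B cell-like cluster had 12 Wtap flox/flox nuclei, too few to describe. Scrublet (scanpy 1.11.5) called 3 and 0 doublets, so it had not worked, and doublets were kept.

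UMIs were summed by class and library. Poisson, Clopper-Pearson and conditional binomial 95% intervals were exact and covered counting error only. No test between genotypes was possible. Ratios and intervals were tested on simulated data. Named genes were the 5 genes, their paralogs and neighbours (3 on each side), the 5 genes just outside the threshold, the 3 most similar genes, extremes in nuclei with a UMI of them, and list genes at least 2-fold apart; adipocyte genes in such nuclei and 4 brown adipocyte genes above 0 were added after their values were seen. Gene positions came from RefSeq (GRCm38). Alternatives covered depth, mitochondrial share, scaling, clustering, doublet scores, shared barcodes and thinning.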

Additional observations from a re-analysis of the deposited data

How the results depend on the processing

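The log2 ratios of the 5 genes in adipocyte-like nuclei kept their sign under each of 10 alternatives of depth, mitochondrial share, scaling, clustering, naming, doublets and barcodes, and most stayed within the interval of the value reported. These alternatives reuse the UMIs by which the genes were chosen, so the kept sign is a description. Removal by doublet score is no check on doublets, since Scrublet had not worked. Removing nuclei above 5% mitochondrial UMIs gave -3.04 for A530020G20Rik and -4.05 for Lgr6, removing those above 10% gave -3.50 for A530020G20Rik, and taking the class from single nuclei gave -3.14 for Tusc3. Leaving out the cluster led by Slc7a10, added after seeing the data, gave -4.55 for A530020G20Rik. The cause was not tested. The number of genes at least 10-fold lower was 12 without a filter on CPM, 5 of them the genes described here, and 3 with the class from single nuclei, and it was 4 without nuclei above 5% mitochondrial UMIs or with mitochondrial UMIs left out of the denominator.

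Thinning set the shares by construction. The share of nuclei with at least 1 of the 5 genes was 64.4% without thinning and 42.1% at 500 UMIs for Wtap flox/flox nuclei, and 12.99% and 4.13% for Wtap-BKO nuclei. Without thinning, the Wtap-BKO shares were 3.34% for Lgr6, 3.36% for Gmpr, 1.499% for Tusc3, 1.44% for Gpr135 and 4.44% for A530020G20Rik, and at 500 UMIs they were 1.18%, 0.912%, 0.365%, 0.405% and 1.32%. The share of Wtap-BKO nuclei with at least 2 genes, among those with at least 1, was 7.80% without thinning and 0.980% at 500 UMIs. Over adipocyte-like nuclei, the log2 level in other Wtap-BKO classes was 2.75 for Tusc3 and -2.36 for Lgr6 without nuclei above 5% mitochondrial UMIs, and it kept its sign under every alternative run for the 5 genes, although for Gpr135 that setting gave -0.69 with an interval including 0 (-2.05 to 0.58). No paired analysis was possible because each genotype had 1 library.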
